A study of Saccharomyces cerevisiae with 12 samples.

Results

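Yeast carrying the spt15-300 allele was compared with yeast carrying SPT15 during growth in a medium with ethanol. The comparison rests on 5 of the 12 arrays of the series, chosen by the strain and medium in their titles: the 3 wild type arrays and replicates 1 and 3 of the mutant. Replicate 2 of the mutant, whose title calls it an outlier, was left out. Both strains were Saccharomyces cerevisiae BY4741, a laboratory haploid whose mating type is a and whose own URA3 gene is deleted. The wild type carried the plasmid p416-Tefmut2-SPT15 and the mutant carried p416-Tefmut2-spt15-300. Plasmids of this type hold URA3 as their marker, and a variant of the TEF promoter drives the insert. The labels describe no change to the chromosomal SPT15, so the plasmid copy was taken as an additional one in both strains. Whether the cultures of a strain came from 1 transformant or several is not given in the sources used here. All 5 cultures grew at 30 °C in closed tubes in YSC -URA, a synthetic medium that lacks uracil, which held 5% ethanol and 60 g/L glucose, and were harvested at an optical density near 0.4. The other medium of the series held 0% ethanol and 20 g/L glucose and was used for 6 further arrays, 3 of each strain. Ethanol and glucose differed together between the media, so the effect of ethanol by itself was not separated.

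The TATA-binding protein, the product of SPT15, binds promoter DNA and is needed for transcription by all the nuclear RNA polymerases. The complexes TFIID and SAGA bring it to promoters, while Mot1 and the NC2 dimer of Bur6 and Ncb2 remove it from DNA or block it there. Many genes with a TATA box, among them genes of stress and nutrient responses, depend strongly on SAGA and on these regulators. The title of the series is about ethanol tolerance, and the comparison asks which transcripts differed between the strains in the medium with ethanol.

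In the ethanol medium the mutant had higher mRNA levels of a share of the genes for oxidant defence and detoxification, and lower levels of a share of those for the respiratory chain, mitochondrial ribosomes and a-cell mating. HUG1, which DNA damage induces and which inhibits ribonucleotide reductase, HXT5, a hexose transporter of slow growth, SRX1, the sulfiredoxin, and GTT2, a glutathione transferase, were among the strongest rises. PRM5, a pheromone-regulated membrane protein, BAR1, the protease that degrades alpha factor, and INO1, which makes inositol phosphate, were among the strongest falls. Transcripts of MOT1 and BUR6, regulators of the TATA-binding protein itself, also rose. In their list of 42 genes of TBP, TFIID, SAGA and TBP regulators the share that differed, 11.9%, was that of all genes. A gene counts as called at an adjusted p under 0.05 over 5449 genes (limma, 1 mean per group, Benjamini-Hochberg), and "rose" and "fell" are used only of called genes. By this rule 638 genes differed (11.7%), 312 higher in the mutant (5.73%) and 326 lower (5.98%). The 2 mutant arrays lay outside the range of the 3 wild type arrays in all 638 of these, and in 2177 of all genes (40%).

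The differences were small. The median size among called genes was 0.26 on the log2 scale, a 1.2-fold change, against 0.10 over all genes. Of the called genes 328 differed by under 1.2-fold, 22 rose and 10 fell at least 1.5-fold, and 4 rose at least 2-fold. The only gene lower by as much, YGL138C, was dim in both strains. Dim means that no array of the strain was above the level that 95% of its fission yeast probe sets stay under, on average 7.23. The median change over all genes was -0.01, so the strains were aligned in scale. In a bulk culture a lower level of an mRNA in each cell and fewer cells that hold it cannot be told apart. The labels' design names biological triplicates, and the p-values measure the spread between these cultures and arrays.

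The calls depended on single arrays. Correlations over all genes were 0.993 to 0.995 among the wild type arrays and 0.995 between the mutant arrays, and 0.986 to 0.995 between strains. Replicate 3 of the wild type correlated with replicate 3 of the mutant as highly as with its own group (0.995), and was the wild type array closest to the mutant mean in 426 of the 638 called genes. Leaving it out raised the count to 1326, and leaving out replicate 3 of the mutant lowered it to 72, all of them among the 638. The count was 360 and 184 without replicates 1 and 2 of the wild type, and 296 without replicate 1 of the mutant. In all, 58 genes, 37 higher and 21 lower, were called whichever of the 11 arrays of the fit was left out. They are called stable here. With only the 5 arrays of the comparison in the fit, 6 genes were called, GTT2, HUG1, SRX1, PRM5, BAR1 and INO1, and all but INO1 were also stable. With the outlier array brought back the count was 0, with 570 genes at an unadjusted p under 0.05. That array correlated at 0.779 to 0.789 with the other 5 and had a median of 9.89, against 10.46 to 10.50.

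**Figure D1:**
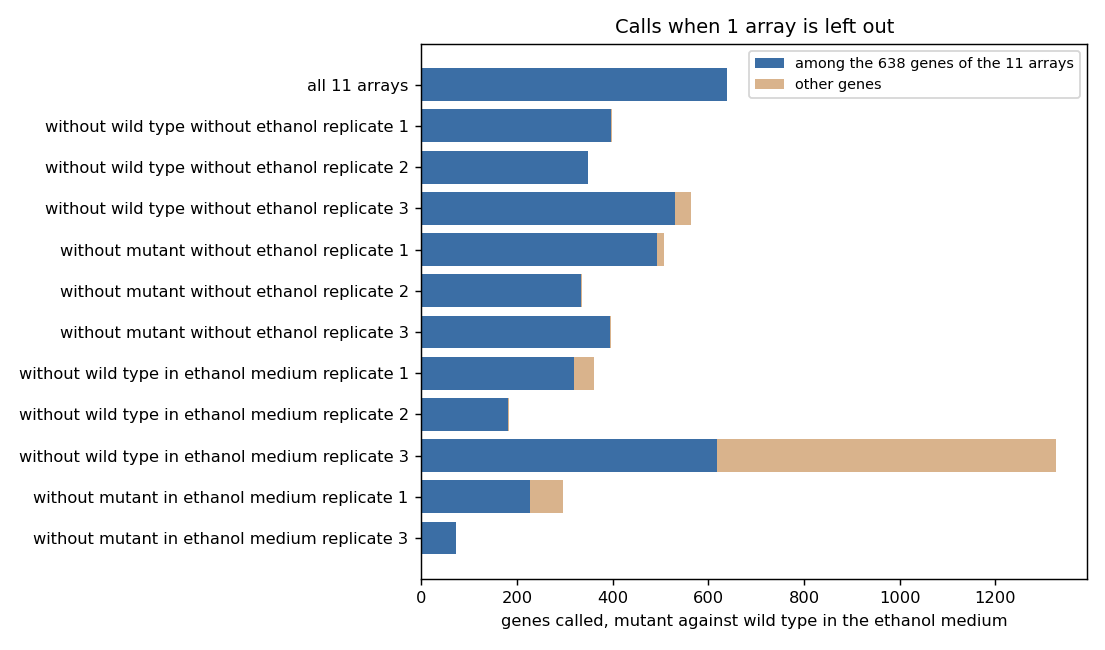
Number of genes called between mutant and wild type in the ethanol medium (x axis) with all 11 arrays and with each array left out in turn (y axis). Blue bars are genes among the 638 called with 11 arrays and tan bars are other genes. The count runs from 72 without replicate 3 of the mutant to 1326 without replicate 3 of the wild type.

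The strains were first checked by the genes on the plasmids. SPT15 read 13.34, 13.33 and 13.37 on the log2 scale in wild type replicates 1 to 3, and 13.31 and 13.28 in mutant replicates 1 and 3. The mutant arrays lay just below the wild type arrays, and the ratio of mutant to wild type was 0.969 (95% interval 0.918 to 1.02, adjusted p = 0.376). The probe set reads the chromosomal gene together with the plasmid copy, and it cannot be assumed to tell the allele from the normal sequence. The array also holds 6 control probe sets for SPT15. Both of those near the 3' end and 1 of the middle ones lay lower in the mutant arrays without overlap, and the other 3 overlapped. One near the 3' end read 12.96, 13.04 and 13.07 in the wild type and 12.86 and 12.88 in the mutant. URA3, which BY4741 can express only from the plasmid, read 13.14, 13.14 and 13.19 in the wild type and 13.36 and 13.33 in the mutant. It rose 1.14-fold (95% interval 1.08 to 1.2, adjusted p = 0.0130), and this call did not survive omission of mutant replicate 1 or 3 (adjusted p = 0.0516 and 0.0617). The 3', middle and 5' control probe sets for URA3 were each higher in both mutant arrays than in the wild type arrays. Plasmid copy number was not measured.

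The cells expressed the genes of mating type a. MFA1 and MFA2, the precursors of a-factor, read 12 to 12.6 and 13.0 to 13.4 over the 5 arrays, and the a-cell genes STE2, STE6, BAR1 and AGA2 read 9.78 to 12.3. Of the alpha-cell genes, MF(ALPHA)1, MF(ALPHA)2 and STE3 read 7.81 to 8.67, against a dim level of 7.23 on average. SAG1, the alpha-agglutinin, read 9.68 to 10.2 in both strains.

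In the machinery that handles the TATA-binding protein the share of called genes was that of all genes. The list of TBP, TFIID, SAGA and TBP regulators has 42 measured genes, of which 3 rose and 2 fell (11.9% called, against 11.7% of all genes), with a median change of 0.01. None of the 14 TAF genes of TFIID was called, and their changes ran from -0.15 to 0.16. MOT1, the ATPase that strips TBP from DNA, read 10.30, 10.11 and 10.26 in the wild type and 10.98 and 10.73 in the mutant. The groups were far apart, and MOT1 rose 1.55-fold (95% interval 1.37 to 1.74, adjusted p = 0.00304). BUR6, the alpha subunit of NC2, read 11.57, 11.66 and 11.66 in the wild type and 12.08 and 11.96 in the mutant. The groups did not overlap, and BUR6 rose 1.31-fold (95% interval 1.21 to 1.41, adjusted p = 0.00361). MOT1 and BUR6 were stable, and both were also higher in the mutant without ethanol, by 0.53 and 0.71 on the log2 scale (adjusted p = 0.000940 and 1.25e-05). NCB2, the other NC2 subunit, differed by 0.10 with arrays that overlapped (adjusted p = 0.197). The SAGA genes SPT8 and SUS1 changed by 0.19 and -0.37 and TOA1, a TFIIA subunit, by -0.17. These calls ended in 9, 7 and 10 of the 11 fits that left out 1 array, each time including wild type replicates 1 and 2 and mutant replicate 3 (highest adjusted p = 0.237, 0.109 and 0.245).

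**Figure D2:**
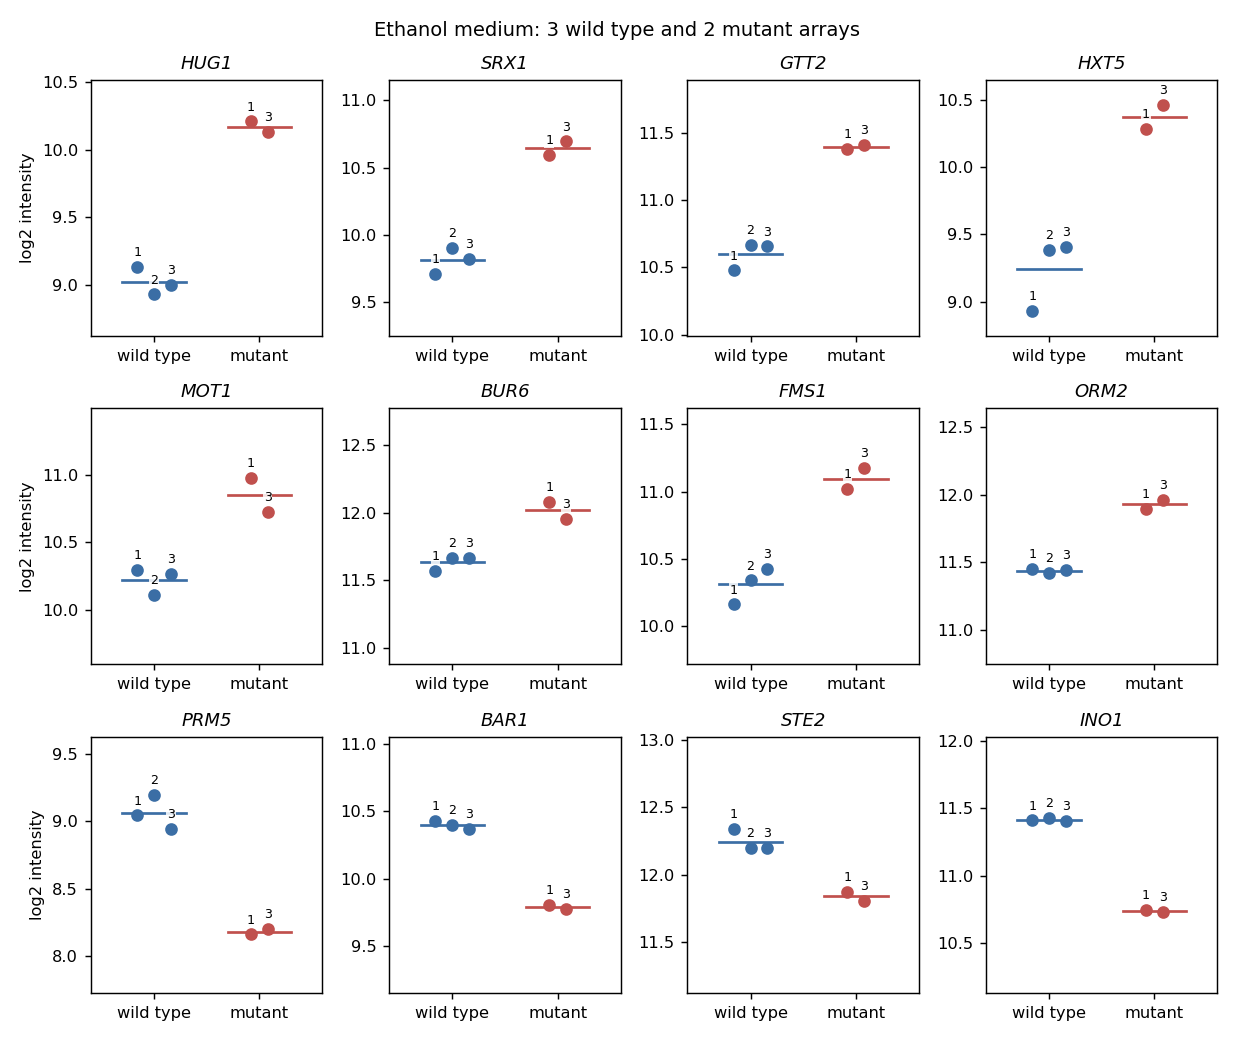
Log2 intensity (y axis) of 12 genes on each array of the ethanol medium, with 3 wild type arrays in blue and 2 mutant arrays in red, numbered by replicate. Horizontal lines are group means, and every panel spans the same height on the log2 scale. No mutant array overlaps the wild type arrays in any panel, as holds for all 638 called genes.

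The largest rise was that of HUG1. Its 3 wild type arrays read 9.13, 8.93 and 9.0 and its mutant arrays 10.21 and 10.13 on the log2 scale. The mutant arrays stood far above every wild type array, a 2.22-fold rise (95% interval 1.96 to 2.51, adjusted p = 0.000284). SML1, the other protein inhibitor of ribonucleotide reductase, overlapped between the strains (0.02, adjusted p = 0.747). Among the genes of the enzyme, RNR1, the large subunit, rose 1.35-fold from 12.20, 11.94 and 12.34 to 12.57 and 12.62 (adjusted p = 0.0214). This call did not survive omission of mutant replicate 1 or 3 (adjusted p = 0.0574 and 0.130). RNR2, RNR3 and RNR4 differed by 0.12, 0.15 and -0.09, with none called. Of 18 measured genes of DNA damage and dNTP supply, 3 rose (16.7%, against 5.73% of all genes; 1 without either mutant array) and 0 fell (median change 0.08), the others being RNR1 and DDR2, whose name comes from its induction by DNA damage. The call of DDR2 (adjusted p = 0.0403) ended in 9 of the 11 fits that left out 1 array, with adjusted p up to 0.235 without replicate 3 of the mutant.

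The list with the largest share of rises was that of oxidoreductases and targets of Yap1 or Yap2. The lists and their members were chosen with earlier results of these data known. The share of a list beside that of all genes is therefore a description, for this and every other list here, and not independent support. Of 56 genes in the lists of peroxiredoxins, thioredoxins and glutathione and of oxidoreductases and targets of Yap1 or Yap2, 19 rose (33.9%, against 5.73% of all genes) and 2 fell, with a median change of 0.12. The count of rises was 8 without replicate 3 of the mutant and 10 without replicate 2 of the wild type, and 2 with only the 5 arrays in the fit. SRX1, which repairs overoxidised peroxiredoxin, read 9.71, 9.90 and 9.83 in the wild type and 10.59 and 10.69 in the mutant. It rose 1.78-fold (95% interval 1.58 to 2.00, adjusted p = 0.000673), with a wide gap between the groups. GTT2 read 10.48, 10.67 and 10.66 in the wild type and 11.38 and 11.41 in the mutant. It rose 1.73-fold (95% interval 1.58 to 1.90, adjusted p = 0.000284). GPX2, a glutathione peroxidase, rose 1.32-fold from 11.02, 11.04 and 10.97 to 11.48 and 11.36. Each of these was stable. The main peroxiredoxin and thioredoxin genes TSA1 and TRX2 differed by -0.02 and 0.06, and CTT1, the cytosolic catalase, by 0.33 with arrays that overlapped.

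Among the oxidoreductases and Yap targets alone, 11 of 25 rose and 1 fell (48% called, against 11.7% of all genes), with a median change of 0.23. The count of rises was 5 without mutant replicate 3, 7 without mutant replicate 1 or wild type replicate 2, and 0 with only the 5 arrays in the fit. OYE3, an NADPH oxidoreductase of the old yellow enzyme family, was the largest at 2.04-fold (95% interval 1.44 to 2.89, adjusted p = 0.0245). Its wild type arrays read 9.21, 9.81 and 9.92 and its mutant arrays 10.49 and 10.86, so replicate 1 of the wild type lay well below the others. The call did not survive omission of wild type replicate 2 (adjusted p = 0.0520) or mutant replicate 3 (adjusted p = 0.16). Its paralog OYE2 differed by 0.14 (adjusted p = 0.0551). ARI1, an NADPH-dependent aldehyde reductase, rose 1.31-fold from 11.46, 11.45 and 11.55 to 11.88 in both mutant arrays (adjusted p = 0.00125). AAD6, of the aryl-alcohol dehydrogenase family, rose 1.34-fold (adjusted p = 0.00740). The export pumps ATR1 and FLR1 rose 1.28-fold and 1.23-fold (adjusted p = 0.00684 and 0.0130). ARI1, AAD6 and ATR1 were stable, and the call of FLR1 did not survive omission of mutant replicate 1 or 3 (adjusted p = 0.0525 and 0.0674).

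HXT5 was the only called gene among 24 of glucose transport and phosphorylation (4.17% called, against 11.7% of all genes), with a median change of -0.03. It read 8.94, 9.38 and 9.41 in the wild type and 10.29 and 10.46 in the mutant, a 2.19-fold rise (95% interval 1.72 to 2.78, adjusted p = 0.00454). The groups were far apart, and the call was stable. The major transporters HXT1 and HXT3 differed by -0.08 and -0.03, with arrays that overlapped. Of 28 genes of glycolysis and ethanol fermentation 2 rose and 0 fell (7.14% called), with a median of 0.02. ADH1, the main alcohol dehydrogenase, and PDC1, the main pyruvate decarboxylase, differed by 0.02 and -0.00 with adjusted p = 0.809 and 0.933.

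For most general stress genes the mean of the mutant arrays was above that of the wild type arrays, and a minority was called. Of 42 genes driven by Msn2 and Msn4, 6 rose (14.3%, against 5.73% of all genes) and 0 fell. The change was positive in 36 and the median was 0.19, against -0.01 for all genes. The strain comparison without ethanol had more, with 25 of the 42 higher (8.26% of all genes were), 0 lower and a median of 0.41. Replicate 1 of the wild type was the lowest of the 5 arrays in 38 of the 42. Relative to the mean of the 5 arrays, the list's median was -0.27 in that array, 0.02 and 0.04 in the other wild type arrays, and 0.02 and 0.19 in mutant replicates 1 and 3. Without wild type replicates 1, 2 and 3 in turn, 4, 4 and 9 genes rose, with medians of 0.08, 0.23 and 0.24. Without mutant replicates 1 and 3, 3 and 0 rose, with medians of 0.26 and 0.10.

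The members of this set that rose most belong to sugar phosphate metabolism and to desiccation. TKL2, a minor transketolase, rose 2.02-fold from 8.63, 9.25 and 9.28 to 9.98 and 10.16 (adjusted p = 0.0130), and NQM1, a transaldolase paralog, 1.64-fold (adjusted p = 0.00645). GRE1, a hydrophilin induced by osmotic stress and drying, rose 1.79-fold (adjusted p = 0.0157). Outside the list, SGA1, a glucoamylase of sporulation that breaks down glycogen, rose 1.95-fold, and IGD1, an inhibitor of glycogen debranching, 1.65-fold. SGA1 was the only called gene among 20 of trehalose and glycogen metabolism (5% called, against 11.7% of all genes), of which 17 had a positive change. Relative to the mean of the 5 arrays, that list's median was -0.21, -0.01 and 0.08 in wild type replicates 1 to 3. It was -0.02 and 0.17 in mutant replicates 1 and 3. For TKL2, NQM1 and SGA1 the call did not survive omission of mutant replicate 3 (adjusted p = 0.0988, 0.0628 and 0.0647). For GRE1 it ended without either mutant array (adjusted p = 0.0505 and 0.0996). For IGD1 it did not survive omission of wild type replicate 1 or 2 or mutant replicate 3 (adjusted p = 0.0604, 0.0626 and 0.200). Of 33 heat shock proteins and chaperones 3 rose and 0 fell (9.09% called, against 11.7% of all genes), with a median of 0.09. HSP12 and HSP26 differed by 0.07 and 0.04, and their arrays overlapped.

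The respiratory chain moved the other way. Of 66 measured genes of complexes II and III with cytochrome c, cytochrome oxidase and the ATP synthase, 24 fell (36.4%, against 5.98% of all genes) and 0 rose. The change was negative in 58, with a median of -0.11, and the mutant arrays lay below the wild type arrays in 36 (54.5%, against 21.5% of all genes). The median over the 66 genes, relative to the mean of the 5 arrays, was 0.04, 0.07 and 0.02 in wild type replicates 1 to 3 and -0.09 and -0.07 in the mutant arrays. The count of falls was 29 without replicate 3 of the wild type, 4 without replicate 2, 6 and 1 without mutant replicates 1 and 3, and 0 with only the 5 arrays in the fit.

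RIP1, the Rieske iron-sulfur protein of complex III, was the 1 stable gene named here from the respiratory chain. It read 12.16, 12.09 and 12.02 in the wild type and 11.77 and 11.83 in the mutant, a 1.22-fold fall (log2 change -0.29, SE 0.0462, adjusted p = 0.00814). The arrays also carry 3 control probe sets for RIP1, and each read lower in both mutant arrays than in every wild type array. COX4 and COX6, subunits of cytochrome oxidase, fell by 0.22 and 0.39 on the log2 scale (adjusted p = 0.0106 and 0.0201). ATP19, a subunit of the ATP synthase, fell by 0.26 from 12.16, 12.19 and 12.10 to 11.90 and 11.89 (adjusted p = 0.00587). CYC1, the main cytochrome c, fell by 0.18 (adjusted p = 0.0287). The calls of COX4 and ATP19 did not survive omission of mutant replicate 3 (adjusted p = 0.0656 and 0.0543). That of COX6 did not survive omission of wild type replicate 2 or either mutant array (adjusted p = 0.0604, 0.0629 and 0.111), and that of CYC1 in 6 of the 11 fits that left out 1 array, among them every array of the ethanol medium but replicate 3 of the wild type (highest adjusted p = 0.127).

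Some mitochondrial ribosomal protein genes fell too. Of 71 mitochondrial ribosomal protein genes 14 fell (19.7%, against 5.98% of all genes) and 0 rose, 62 had a negative change and the median was -0.13. Without replicate 3 of the wild type 33 fell, and without replicate 3 of the mutant 0 did, with medians of -0.15 and -0.11. Without wild type replicates 1 and 2 or mutant replicate 1, 5, 2 and 5 fell. MRPL7, of the large subunit, fell by 0.27 on the log2 scale (adjusted p = 0.0157), a call that did not survive omission of mutant replicate 3 (adjusted p = 0.109). Of 128 cytosolic ribosomal protein genes 3 fell and 0 rose (2.34%, against 5.98% of all genes), although 108 had a negative change and the median was -0.05. The shared probe sets of 25 of these genes do not tell paralogs apart.

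Regulators of respiration included some rises. Of 19 genes of respiratory regulators and NADH dehydrogenases 4 rose (21.1%, against 5.73% of all genes) and 0 fell. The count of rises was 1 without wild type replicate 2, 2 without wild type replicate 1 or mutant replicate 1, and 0 without mutant replicate 3. HAP1, known as a haem-responsive regulator, rose 1.26-fold from 11.15, 11.16 and 11.38 to 11.54 and 11.57 (adjusted p = 0.0201). Whether this strain makes a working Hap1 protein was not measured. HAP2, of the Hap2/3/4/5 complex, rose 1.16-fold (adjusted p = 0.0433). The other genes of that complex, HAP3, HAP4 and HAP5, differed by 0.00, -0.20 and 0.05 and were not called. DLD1, the D-lactate dehydrogenase that feeds electrons to cytochrome c, rose 1.28-fold from 11.56, 11.60 and 11.61 to 11.94 in both mutant arrays (adjusted p = 0.00660). The call of DLD1 did not survive omission of mutant replicate 3 (adjusted p = 0.0543). That of HAP1 did not survive omission of wild type replicate 2 or either mutant array (adjusted p = 0.0601, 0.0578 and 0.117), and that of HAP2 in 9 of the 11 such fits (highest adjusted p = 0.268, without replicate 3 of the mutant). In the tricarboxylic acid and glyoxylate cycle 2 of 27 genes rose and 2 fell (14.8% called, against 11.7% of all genes), with a median of 0.01. Among the falls was CIT3, a mitochondrial isoenzyme of citrate and methylcitrate synthase, by 0.37 (adjusted p = 0.0168). PDH1, a methylcitrate dehydratase by homology that lies next to CIT3 by its locus number, fell 1.48-fold from 10.48, 10.27 and 10.35 to 9.77 and 9.83 (adjusted p = 0.00567). PDH1 was stable, and the call of CIT3 did not survive omission of wild type replicate 2 or either mutant array (adjusted p = 0.0532, 0.0640 and 0.0717).

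**Figure D3:**
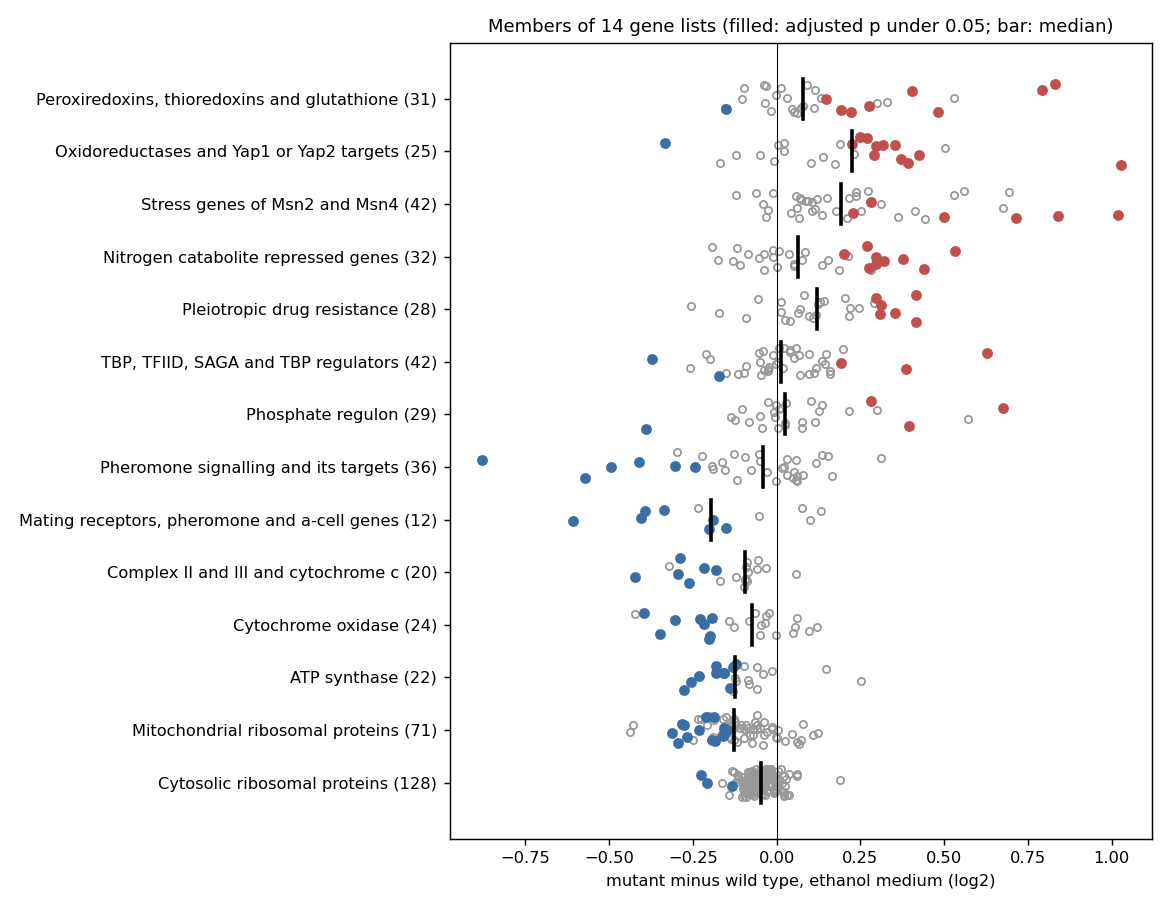
Log2 change of mutant over wild type in the ethanol medium (x axis) for the measured genes of 14 lists (y axis, number of genes in brackets). Each point is a gene, filled red or blue where it rose or fell and open where it was not called, and black bars are list medians. Respiratory, mitochondrial ribosomal and a-cell lists have medians of -0.07 to -0.20, and the list of oxidoreductases and Yap targets has 0.23.

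Part of the mating genes fell. Of 48 measured genes in the lists of mating receptors, pheromone and a-cell genes and of pheromone signalling and its targets, 13 fell (27.1%, against 5.98% of all genes) and 0 rose, with a median change of -0.07. Among the 12 genes of receptors, pheromone and a cells 7 fell, with a median of -0.20, and 3 fell without wild type replicate 1 or 2 and 2 without mutant replicate 3. The count of falls was 4 without replicate 3 of the mutant and 9 without wild type replicate 1 or 2, and 2 with only the 5 arrays in the fit. BAR1 read 10.43, 10.40 and 10.37 in the wild type and 9.81 and 9.78 in the mutant, a 1.52-fold fall (log2 change -0.61, SE 0.0645, adjusted p = 0.00126). The spread within each strain was much smaller than the gap. STE2, the alpha-factor receptor, fell 1.32-fold from 12.34, 12.20 and 12.20 to 11.88 and 11.81 (adjusted p = 0.00304). AGA2, the binding subunit of a-agglutinin, fell 1.26-fold (adjusted p = 0.0272), and AGA1, its anchor, overlapped between strains (0.10, adjusted p = 0.482).

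PRM5 was the strongest fall among pheromone targets. It read 9.04, 9.20 and 8.95 in the wild type and 8.16 and 8.20 in the mutant, a 1.84-fold fall (log2 change -0.88, SE 0.0851, adjusted p = 0.000799). PRM5 is known as a target of the cell wall integrity pathway too. FUS1, needed at the membrane for cell fusion, fell 1.49-fold from 8.64, 8.60 and 8.55 to 8.07 and 7.98 (adjusted p = 0.00304). KAR4, a transcription factor of karyogamy, and FAR1, the pheromone-induced inhibitor of the cell cycle, fell 1.41-fold and 1.33-fold (adjusted p = 0.00892 for each). PRM5, FUS1, BAR1 and STE2 were stable. The calls of KAR4 and FAR1 did not survive omission of mutant replicate 3 (adjusted p = 0.0751 for each), and that of AGA2 did not survive omission of wild type replicate 1 or 2 or mutant replicate 3 (adjusted p = 0.0619, 0.0814 and 0.183). STE3, the receptor of alpha cells, read 8.24, 8.34 and 8.24 in the wild type and 7.99 in both mutant arrays, so it too was lower (adjusted p = 0.0168). That call did not survive omission of wild type replicate 2 or either mutant array (adjusted p = 0.0508, 0.0540 and 0.0972).

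INO1, the inositol phosphate synthase and the classic gene of inositol control, read 11.41, 11.43 and 11.40 in the wild type and 10.75 and 10.73 in the mutant. The arrays of each strain were nearly identical, and INO1 fell 1.6-fold (log2 change -0.68, SE 0.148, adjusted p = 0.0247). Its SE is larger than these arrays would give because the fit shares the spread with the other medium. The call did not survive omission of wild type replicate 1 or 2 or mutant replicate 1 or 3 (adjusted p = 0.0505, 0.0670, 0.0697 and 0.130), yet held with only the 5 arrays in the fit (adjusted p = 0.0339). Among other genes under the same inositol control, CHO1, OPI3 and OPI1, the repressor of INO1, differed by 0.02, -0.04 and 0.09 and were not called. Of 29 genes of inositol and phospholipid synthesis 2 rose and 2 fell (13.8% called, against 11.7% of all genes), with a median of 0.02. Ergosterol synthesis had 2 higher and 1 lower of 26 (11.5% called), and fatty acids and sphingolipids 2 higher and 0 lower of 26 (7.69% called). ORM2, a regulator of sphingolipid synthesis, was chosen after its values were seen. It rose 1.41-fold from 11.45, 11.42 and 11.44 to 11.89 and 11.96 (adjusted p = 0.000284) and was stable.

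Of 39 genes of the cell wall and its integrity pathway 5 rose (12.8%, against 5.73% of all genes) and 0 fell, with a median of 0.04. The count of rises was 8 without replicate 3 of the wild type, and 2 and 0 without replicates 1 and 3 of the mutant. PIR3, a covalently bound wall protein, rose 1.51-fold from 10.88, 11.20 and 11.30 to 11.66 and 11.79 (adjusted p = 0.0168), and GSC2, a glucan synthase subunit, 1.28-fold (adjusted p = 0.0184). Outside the list, HPF1, a wall mannoprotein, rose 1.68-fold from 10.82, 11.18 and 11.32 to 11.83 and 11.88 (adjusted p = 0.0110). In PIR3 and HPF1 replicate 1 of the wild type was again the lowest. The calls of PIR3, GSC2 and HPF1 did not survive omission of mutant replicate 3 (adjusted p = 0.117, 0.112 and 0.0751), and that of GSC2 also without replicate 1 (adjusted p = 0.0524).

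Genes named for meiosis and spores went both ways, 4 of 35 higher and 5 lower (25.7% called, against 11.7% of all genes). SPS100, a spore wall protein, rose 1.86-fold from 8.49, 9.04 and 8.80 to 9.66 and 9.70 (adjusted p = 0.00913). SSP1, of the prospore membrane, fell 1.42-fold from 9.23, 9.33 and 9.13 to 8.77 and 8.68 (adjusted p = 0.00521). SPS22, a spore wall organiser, was dim in the mutant and at least 1.32-fold lower there (adjusted p = 0.0364). Haploid cells do not sporulate. SPS100 and SSP1 read below the median wild type level of all genes, 10.48, but above the dim level. The calls of SPS100 and SSP1 did not survive omission of mutant replicate 3 (adjusted p = 0.0696 and 0.0512), and that of SPS22 in 6 of the 11 fits that left out 1 array (highest adjusted p = 0.147, without replicate 3 of the mutant). MIP6, an RNA-binding protein, was stable and fell 1.47-fold from 7.91, 8.03 and 7.87 to 7.37 and 7.40 (adjusted p = 0.00452). Its mutant arrays read near the dim level, on average 7.23, so the size of this fall is uncertain.

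Part of the nitrogen supply genes rose. Of 32 nitrogen catabolite repressed genes 9 rose (28.1%, against 5.73% of all genes) and 0 fell, with a median change of 0.06. The count of rises was 4 without wild type replicate 2, and 4 and 2 without mutant replicates 1 and 3. All 3 ammonium permeases were among them. MEP3, the one with the highest capacity, read 11.47, 11.49 and 11.54 in the wild type and 11.86 and 11.90 in the mutant, a 1.3-fold rise (95% interval 1.2 to 1.41, adjusted p = 0.00438). MEP2 and MEP1 rose 1.25-fold and 1.21-fold (adjusted p = 0.0201 and 0.0185). DUR3, a urea transporter, rose 1.36-fold from 9.04, 9.18 and 9.24 to 9.62 and 9.57 (adjusted p = 0.00654). MEP3 and DUR3 were stable. The calls of MEP2 and MEP1 did not survive omission of mutant replicate 1 or 3 (adjusted p = 0.0540 and 0.126 for MEP2, 0.0715 and 0.0628 for MEP1), and that of MEP2 without replicate 2 of the wild type (adjusted p = 0.0590).

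Genes of amino acid synthesis went both ways. Of 33 genes of arginine, lysine and leucine synthesis 8 rose and 3 fell (33.3% called, against 11.7% of all genes), with a median of 0.09. On leaving out 1 array the count ran from 3 rises without either mutant array, and 0 falls without replicate 3, to 10 rises without wild type replicate 1, and it was 4 without wild type replicate 2. The lysine enzymes LYS20, the homocitrate synthase that starts the pathway, LYS4 and LYS1, which ends it, rose 1.25-fold, 1.32-fold and 1.2-fold (adjusted p = 0.00380, 0.0134 and 0.00533). LYS1 read 11.32, 11.29 and 11.32 in the wild type and 11.57 and 11.58 in the mutant, with narrow spread in both strains. ARG8, an early arginine enzyme, rose 1.22-fold (adjusted p = 0.00645), while ARG4, argininosuccinate lyase, fell by 0.21 on the log2 scale (adjusted p = 0.0207). LYS20, LYS1 and ARG8 were stable. The call of LYS4 did not survive omission of mutant replicate 1 or 3 (adjusted p = 0.0537 and 0.0709), and that of ARG4 without replicate 3 (adjusted p = 0.138). GCV1, a subunit of glycine decarboxylase, rose 1.21-fold from 12.41, 12.36 and 12.34 to 12.64 in both mutant arrays (adjusted p = 0.00892), until replicate 3 of the mutant was left out (adjusted p = 0.0647). IMD2, an IMP dehydrogenase gene, read 6.86, 6.81 and 6.66 in the wild type and 5.77 and 6.0 in the mutant. Its arrays did not overlap (adjusted p = 0.000673), but it was dim in both strains and its probe set also matches near-identical sequence, so no fold is given.

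Over all genes 5.73% rose and 5.98% fell. In pleiotropic drug resistance 6 of 28 genes rose (21.4%) and 0 fell, with a median of 0.12. The count of rises was 9 without wild type replicate 3, and 2 and 1 without mutant replicates 1 and 3. PDR5, the main drug efflux pump, rose 1.33-fold from 11.37, 11.07 and 11.47 to 11.73 and 11.71 (adjusted p = 0.0259), a call that did not survive omission of mutant replicate 1 or 3 (adjusted p = 0.0749 and 0.124). In iron and copper uptake 3 of 32 rose and 1 fell (12.5% called, near the 11.7% of all genes), with a median of 0.15 and with 0 to 9 rises when 1 array was left out, 0 without mutant replicate 3 and 9 without wild type replicate 3. ENB1, a siderophore transporter, fell by 0.34 (adjusted p = 0.0184), and this did not survive omission of mutant replicate 3 (adjusted p = 0.126). In the thiamine list 3 of 19 rose and 1 fell (21.1% called), with 6 rises without wild type replicate 3 and 0 without mutant replicate 3. THI4, which makes the thiazole part, rose 1.35-fold from 9.34, 9.55 and 9.57 to 9.91 and 9.93 (adjusted p = 0.00567), and this too did not survive omission of mutant replicate 3 (adjusted p = 0.0543). Proteasome genes had 1 higher and 4 lower of 34, hypoxic genes 2 higher and 1 lower of 26 (11.5% called, near the share of all genes), purine and one-carbon genes 4 higher and 2 lower of 26, and sulfate and methionine genes 1 higher of 32. Of 24 histone and cell cycle genes 0 were called.

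Some of the stable genes fall in none of these lists, and the following were chosen after their values were seen. FMS1, a polyamine oxidase, which is also among the 15 largest rises, rose 1.72-fold from 10.16, 10.34 and 10.43 to 11.02 and 11.17 (adjusted p = 0.00130). SHR5, which takes part in the palmitoylation of Ras, rose 1.55-fold from 10.28, 10.29 and 10.40 to 10.87 and 11.05 (adjusted p = 0.000673). PMA2, a minor isoform of the plasma membrane proton pump, rose 1.53-fold from 10.15, 10.06 and 10.37 to 10.79 and 10.82 (adjusted p = 0.00304). PMA1, the main isoform, overlapped between strains (0.06, adjusted p = 0.387). CHA1, a serine and threonine deaminase, rose 1.49-fold, YIH1, an inhibitor of the activation of the kinase Gcn2, 1.44-fold, and ABZ1, which makes a precursor of folate, 1.36-fold. BNA1, an enzyme of NAD synthesis from tryptophan, fell 1.43-fold from 12.24, 12.23 and 12.13 to 11.74 and 11.64 (adjusted p = 0.000673). As in all 638 called genes, the groups did not overlap in any of these.

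The same strain comparison without ethanol comes from other arrays. The calls of both media still use 1 estimate of each gene's spread, so a gene with a small spread is called more easily in both. There 890 genes were called (16.3%), 450 higher (8.26%) and 440 lower (8.07%). With array medians aligned the split was 491 higher and 274 lower. Of the 638 genes called in the ethanol medium, 255 were called the same way without ethanol, which is 40.0% of the calls in the ethanol medium and 28.7% of those in the other, and 10 were called the opposite way. The share called the same way was 49.4% for rises and 31.0% for falls. The change had the same sign in both media for 555 of the 638 (87.0%), against 3403 of all 5449 genes (62.5%). SRX1, HUG1, HXT5, FMS1, BAR1 and FUS1 were among those that agreed, with changes of 0.87, 0.88, 0.99, 0.81, -0.65 and -0.83 without ethanol. Redox and mating lists moved there too. Of the peroxiredoxin list 12 of 31 genes rose and 2 fell, and of the oxidoreductase list 9 of 25 rose and 2 fell. Of the list of mating receptors, pheromone and a-cell genes 8 of 12 fell and 0 rose. Of that of pheromone signalling 9 of 36 fell and 2 rose. Of the mitochondrial ribosomal list 1 of 71 rose and 0 fell. The labels give no batch, so the 2 media could not be compared within one. The 3'-to-5' signal difference, which reflects RNA quality, was taken over 8 control genes and had array medians of 0.361 to 0.435 in the wild type and 0.379 to 0.400 in the mutant with ethanol. These overlapped, while without ethanol they were 0.310 to 0.359 and 0.240 to 0.266, and the part of this in the results was not tested.

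**Figure D4:**
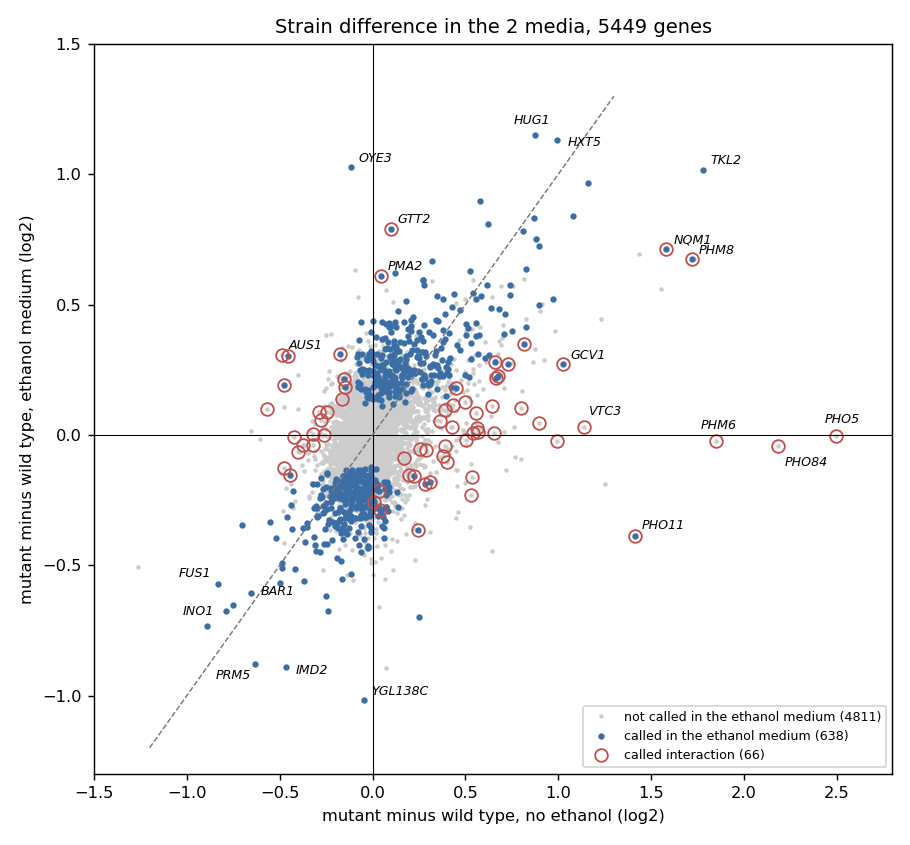
Log2 change of mutant over wild type without ethanol (x axis) and in the ethanol medium (y axis) for 5449 genes. Blue points are the 638 genes called in the ethanol medium, red circles the 66 genes whose change differed between the media by the interaction test, and the dashed line marks equal changes. HUG1 and HXT5 lie near the dashed line, while PHO5, PHO84 and PHM6 lie far to the right at a change near 0 in the ethanol medium.

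The interaction, the change in the ethanol medium minus that without ethanol, tests whether the strain difference depended on the medium. It was called for 66 genes (1.21%), 21 higher (0.385%) and 45 lower (0.826%) in the ethanol medium. For 613 of the 638 calls in the ethanol medium the interaction was not called, which does not show that the change was equal in both. Where a rise in the ethanol medium had a called interaction, it was positive in 7 genes and negative in 9. Where a fall had one, it was negative in 8 and positive in 1. GTT2 rose in the ethanol medium and differed by 0.10 without ethanol (adjusted p = 0.255), an interaction of 0.69 (SE 0.0803, adjusted p = 0.00292). PMA2 likewise had an interaction of 0.57 (adjusted p = 0.0339). The paralogs YLR460C and YCR102C rose by 0.30 and 0.19 in the ethanol medium and fell by 0.45 and 0.48 without it (interactions 0.76 and 0.67, adjusted p = 0.00513 and 0.000524). Their calls in the ethanol medium ended in 5 and 6 of the 11 fits that left out 1 array, each time including every array of that medium but replicate 3 of the wild type (highest adjusted p = 0.140 and 0.100). AUS1, a sterol importer, and AGA1 had interactions of 0.80 and 0.67 (adjusted p = 0.0339 and 0.0381) and fell without ethanol, by 0.49 and 0.57, while neither was called in the ethanol medium. The interactions of GTT2, YLR460C and YCR102C were called whichever array was left out. Those of PMA2, AUS1 and AGA1 ended in 9, 6 and 7 of the 11 such fits, with adjusted p up to 0.128, 0.125 and 0.128 on leaving out mutant replicate 3 with ethanol, among others.

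Respiratory genes were among those with a negative interaction. RIP1 differed by 0.04 without ethanol and had an interaction of -0.33 (adjusted p = 0.0381). COX4 and ATP19 had interactions of -0.25 and -0.26 (adjusted p = 0.0453 and 0.0436). These calls of RIP1, COX4 and ATP19 ended in 10 of the 11 fits that left out 1 array, all but the one without replicate 3 of the wild type in the ethanol medium (highest adjusted p = 0.116, 0.146 and 0.141). CYC1 fell in the ethanol medium and rose by 0.31 without ethanol (adjusted p = 0.000639), an interaction of -0.49 (adjusted p = 0.00292) that was called in all 11 of these fits. Of the 66 respiratory chain genes 24 fell with ethanol. Without ethanol 8 of 20 genes rose in the list of complexes II and III with cytochrome c. In cytochrome oxidase 2 of 24 rose and in the ATP synthase 4 of 22, with 0 lower in each list. Over all genes 8.26% rose without ethanol, and cytochrome oxidase was near that share.

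The phosphate regulon held the largest interactions. PHO5, a secreted acid phosphatase, read 11.75, 11.57 and 11.54 in the wild type and 11.75 and 11.49 in the mutant with ethanol. The strains overlapped, and the change of -0.00 stood against one of 2.49 without ethanol (interaction -2.50, adjusted p = 8.16e-06). PHO84, the high-affinity transporter, PHM6 and VTC3, a subunit of the polyphosphate polymerase, differed by -0.04, -0.02 and 0.03 with ethanol and had interactions of -2.22, -1.87 and -1.11. These interactions and that of PHO5 were called whichever array was left out. PHO11, an acid phosphatase on a shared probe set, fell by 0.39 with ethanol (adjusted p = 0.0188) and had an interaction of -1.80. This fall did not survive omission of mutant replicate 1 or 3 (adjusted p = 0.0725 and 0.0628). Of 29 genes of the regulon 3 rose and 1 fell in the ethanol medium (13.8% called, near the 11.7% of all genes, median 0.02), against 16 that rose and 0 that fell without ethanol (median 0.27), and 13 had a called interaction.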

How the data were processed

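RNA of 12 yeast cultures was measured on Affymetrix Yeast Genome 2.0 arrays, 1 array each. The values used are the authors' deposited intensity per probe set on a linear scale, made with RMA, per the submitters' processing notes. The sources used here do not state its version or settings. No read depth exists, and the number of arrays limits the precision. Probe sets were named by the platform annotation, and 5498 matched 1 Saccharomyces cerevisiae gene. Where a gene had several, its brightest probe set by mean was kept, giving 5449 genes, 118 of them on probe sets shared with similar sequences.

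The deposited values were turned to log2 with no pseudocount. Limma 3.58.1 in R 4.3.3 fitted 1 mean per group to 11 arrays, without the one titled an outlier, so all 4 groups shared 1 estimate of the spread (7 residual degrees of freedom). The fit was tested on simulated data. The groups come from the sample titles. With 2 arrays against 3, an exact two-sided permutation test of a single gene cannot go below p = 0.2.

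The genes given by name are the 15 highest and 15 lowest called changes without overlap, up to 5 called members of each of 34 lists by smallest p, the 5 highest and 5 lowest interactions, SPT15 and URA3, and markers of mating type. Not all of them are printed, and genes named beyond this rule are marked. The members and lists were chosen with earlier results of these data known. A gene is dim in a group where no array of it exceeds that array's 95th percentile of fission yeast probe sets. Alternatives were the outlier array brought back with and without weights, a fit of the groups compared alone, a replicate block, other scaling, a filter on the lowest 25%, another variance model, the mean of probe sets, a pseudocount of 16, and each of 11 arrays left out.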

Additional observations from a re-analysis of the deposited data

Results flagged for a closer look

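For 18 genes named above, the strain difference in the ethanol medium differed from that without ethanol by the interaction test (limma, adjusted p under 0.05). The interaction, on the log2 scale, was largest in genes of phosphate supply. It was -2.50 for PHO5, -2.22 for PHO84, -1.87 for PHM6, -1.80 for PHO11 and -1.11 for VTC3. Among stress and metabolic genes it was -0.87 for NQM1, -0.85 for HSP26 and -0.75 for GCV1. HSP26 differed by 0.04 with ethanol and by 0.90 without. NQM1 and GCV1 rose in the ethanol medium, and their positive change was larger without ethanol. How these 3 interactions fared when 1 array was left out is not given here. In the respiratory chain the interaction was -0.49 for CYC1, -0.33 for RIP1, -0.26 for ATP19 and -0.25 for COX4. It was positive for AUS1 at 0.80, YLR460C at 0.76, GTT2 at 0.69, AGA1 at 0.67, YCR102C at 0.67 and PMA2 at 0.57. Ethanol and glucose differed together between the media, so their parts in these differences cannot be told apart.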

How the results depend on the processing

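The number of calls depended on which arrays entered the fit and much less on scaling or filters. With the outlier array brought back, 0 genes were called in the ethanol medium by limma (570 at an unadjusted p under 0.05), 3 in the interaction and 13 without ethanol. With array weights on those 12 arrays the counts were 510, 486 and 2729. With only the 5 arrays compared in the fit, 6 genes were called in the ethanol medium (989 unadjusted). Leaving out 1 array gave 72 to 1326 calls in the ethanol medium, 16 to 448 interactions and 454 to 974 calls without ethanol. The cause was not tested. A replicate block gave 552, 46 and 1030 calls. Deviations from the group means correlated at -0.247 to 0.709 between same-numbered arrays of different groups and at -0.629 to 0.476 between others. The 2 pairs of the ethanol medium were at 0.626 and 0.506. Same-numbered pairs among the mutant without ethanol and both ethanol groups were all positive, from 0.257 to 0.709. Those with the wild type without ethanol, which is outside this comparison, ran from -0.247 to 0.185. The main fit did not take the numbers as pairs, and what arrays of the same number share was not tested. Under the block the stress list had 10 rises in place of 6, the trehalose and glycogen list 3 in place of 1, and the respiratory chain 16 falls in place of 24. Of 77 called genes named here 74 kept the call under the block. The exceptions were YLR460C, YCR102C and TOA1. The other scalings, filters and variance models gave 594 to 785 calls in the ethanol medium.

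Of the 77 genes, 31 were called whichever array was left out, 46 lost the call without replicate 3 of the mutant, and 0 changed sign. With the outlier array in the mutant mean, 15 changed sign. The log2 change was then 0.16 for SPS22, -0.22 for BUR6, -0.23 for SPT8, -0.24 for URA3, -0.068 for RNR1, -0.060 for LYS20 and -0.13 for GCV1. It was -0.016 for HAP1, -0.75 for HAP2, -0.015 for DLD1, -0.080 for MEP3, -0.00052 for LYS1, -0.087 for GSC2, -0.040 for ABZ1 and 0.71 for STE3. The array that turned these is the one titled an outlier.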
